A study of Mus musculus with 6 samples.

Results

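The Reg genes and Itln1 encode secreted lectins of the gut and pancreas, and their signals in mouse colon are described here for control mice and mice lacking Hdac2 in the intestinal epithelium. The members are the 8 genes Reg1, Reg2, Reg3a, Reg3b, Reg3g, Reg3d, Reg4 and Itln1, taken as every probe set whose platform gene symbol is one of these names. They are covered by 9 of 45101 probe sets and make up 8 of the 18193 genes that have a probe set of their own. The family was chosen by its difference between these same 2 groups, the signals in HDAC2 KO against control. The differences of its members are therefore given as a description, without a test.

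The study hybridised RNA from the colon of 3 control and 3 HDAC2 KO mice to 1 one-colour Affymetrix array each. The HDAC2 KO mice carried floxed Hdac2, which encodes a histone deacetylase, and a Cre transgene driven by the promoter of villin, a gene expressed in epithelial cells of small and large intestine alike. All were of a mixed CD-1/129/C57BL/6 background, untreated and on a normal diet. The labels call the other group control without giving its floxed allele or Cre status, and give no age or sex. The sample sources name epithelium of 1 numbered mouse, the extraction text names colon, and the description of the HDAC2 KO samples names both HDAC1 and HDAC2. Pooling of mice is not mentioned, and nothing beyond the mouse numbers says that the arrays are separate animals, so the spread between arrays may in part be technical. Xist, a transcript of female cells, and the Y-linked genes Eif2s3y and Kdm5d all gave log2 signals of 6.90 or more on every array, so whether an array holds 1 mouse or RNA of several cannot be told from these data, and n = 3 counts arrays.

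Reg proteins are small secreted proteins built around 1 C-type lectin domain. Reg3b and Reg3g bind bacterial surfaces and kill bacteria in the mucus layer. Their genes are induced in gut epithelium by interleukin-22 acting through STAT3, and by bacterial products acting through Toll-like receptors and MyD88. Reg1, Reg2 and Reg3d are known chiefly from the exocrine pancreas, and Reg1 is also made in the small intestine. Reg4 marks deep crypt secretory cells, the colon's counterpart of Paneth cells, and some enteroendocrine cells. Itln1 encodes intelectin-1, a lectin of another fold that recognises microbial sugars and is made by goblet and Paneth cells.

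A promoter was found for all 8 genes in the RefSeq table of mouse build GRCm38.p6, which belongs to the annotation and not to the arrays. The 6 cluster genes Reg3b, Reg3d, Reg3a, Reg2, Reg1 and Reg3g follow one another on chromosome 6 in that order, with 1 pseudogene between Reg1 and Reg3g, while Reg4 lies on chromosome 3 and Itln1 on chromosome 1. Shown are the 150 bases before the annotated start of Reg3b and Reg3g, the members with the largest differences, of Reg1, which also differed, and of Reg2, Reg3d and Reg3a, which lie among them. Capitals mark TATAAA and TTCNNNGAA, the STAT-type palindrome. Both motifs were searched on both strands, and no match of one overlapped a match of the other.

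Reg3b, chr6:78370735-78370884, plus strand: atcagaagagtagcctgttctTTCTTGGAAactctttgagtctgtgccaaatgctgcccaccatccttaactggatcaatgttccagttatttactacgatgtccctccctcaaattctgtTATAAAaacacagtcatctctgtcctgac
Reg3g, chr6:78468875-78469024, minus strand: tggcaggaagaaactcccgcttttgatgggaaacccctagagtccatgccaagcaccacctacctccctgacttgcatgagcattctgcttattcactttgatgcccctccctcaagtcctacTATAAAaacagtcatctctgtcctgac
Reg1, chr6:78425833-78425982, plus strand: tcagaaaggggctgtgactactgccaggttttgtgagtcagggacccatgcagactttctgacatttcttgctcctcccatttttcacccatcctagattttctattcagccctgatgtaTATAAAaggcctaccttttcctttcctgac
Reg2, chr6:78405005-78405154, plus strand: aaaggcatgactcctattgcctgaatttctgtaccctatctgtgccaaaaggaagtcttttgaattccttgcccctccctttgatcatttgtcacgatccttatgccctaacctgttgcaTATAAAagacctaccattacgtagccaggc
Reg3d, chr6:78378866-78379015, minus strand: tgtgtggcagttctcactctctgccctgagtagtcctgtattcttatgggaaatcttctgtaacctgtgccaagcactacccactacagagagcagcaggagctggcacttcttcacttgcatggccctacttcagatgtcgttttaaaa
Reg3a, chr6:78380559-78380708, plus strand: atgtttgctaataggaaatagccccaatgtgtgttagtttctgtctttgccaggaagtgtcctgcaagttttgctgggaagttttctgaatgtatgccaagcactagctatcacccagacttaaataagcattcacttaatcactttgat

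The promoters of Reg3b and Reg3g were the most alike of all 28 pairs of members. Over the 250 bases before the start they matched at 177 of 257 aligned positions (68.9%) and shared an unbroken run of 20 bases. Reg1 and Reg2 came next, at 58.5%. TATAAA began 29 bases before the start of Reg3b, 27 before that of Reg3g and 30 before those of Reg1 and Reg2. A further TATAAA lay on the opposite strand 161 bases before the start of Reg3g. The exact motif was absent from the 150 bases before the annotated start of Reg3a, Reg3d, Reg4 and Itln1. It was present in 7.56% of 32544 annotated promoters over the same length. Only exact matches before the annotated start were counted, so a related or displaced motif would be missed. TTCNNNGAA began 129 bases before the start of Reg3b and was the sole match to that motif among the 8 stretches of 150 bases, where 4.1% of all promoters hold it. A further match lay 238 bases before the start of Reg3d. TATAAA was thus also present in Reg2, whose signals were low and overlapped between the groups. Whether either motif has a part in the differences was not tested.

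Signals are robust multi-array average (RMA) values on the log2 scale, so that a difference of 1 is a doubling of signal. Each gene is represented by its probe set of highest mean signal. A gene was tested where its mean over the 6 arrays reached 6.66, the 40th percentile of all genes. Of the 8 members 4 passed this filter, namely Reg3b, Reg3g, Reg4 and Itln1, and 4 did not. Reg3g passed through its HDAC2 KO signals alone, since its control mean of 6.11 lay below the filter. Differences are HDAC2 KO minus control, and the standard error (SE) of a member's difference comes from a limma fit over all probe sets with 1 gene symbol.

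Reg3b, Reg3g, Reg1 and Itln1 were higher in HDAC2 KO colon and Reg4 was lower, each by more than 1 on the log2 scale. That size was reached by 5 of 8 members and by 71 of all 18193 genes (0.390%), which describes how the family was chosen and supports nothing further. The groups did not overlap for 6 of the 8 genes, 5 of them higher and 1 lower. Groups did not overlap for 28.9% of all genes and for 37.7% of the 10916 genes tested, 19.9% higher and 17.7% lower. Nothing is read from that count, since the contrast was known when the genes were chosen. All control signals of Reg3a, Reg3d, Reg1 and Reg2 lay between 5.04 and 5.60, under the signal filter.

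**Figure D1:**
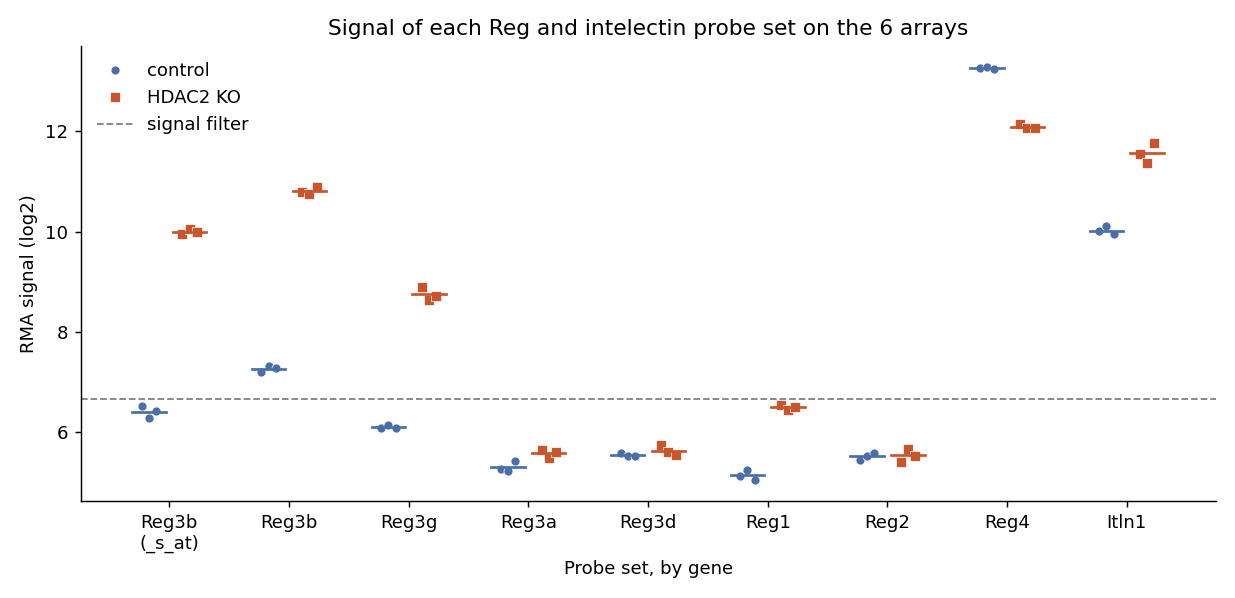
RMA signal (log2) of the 9 probe sets on the 3 control arrays (blue circles) and 3 HDAC2 KO arrays (orange squares). Short bars are group means and the dashed line is the signal filter at 6.66. Both Reg3b probe sets, Reg3g, Reg1 and Itln1 are higher in HDAC2 KO without overlap, Reg4 is lower without overlap, and Reg3d and Reg2 overlap.

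Reg3b, a bactericidal lectin, had control signals of 7.19, 7.32 and 7.28 and HDAC2 KO signals of 10.79, 10.75 and 10.89. The lowest HDAC2 KO array stood 3.43 above the highest control array, against a range of 0.122 within control and 0.141 within HDAC2 KO. The difference was 3.54 (SE 0.057), a fold of 11.6, from a mean of 7.26 ± 0.063 to one of 10.81 ± 0.073 (SD, n = 3). No other of the 18193 genes had a larger rise.

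A second Reg3b probe set gave nearly the same difference at a lower signal. It read 6.53, 6.28 and 6.43 in control and 9.945, 10.04 and 9.996 in HDAC2 KO, a difference of 3.58 (SE 0.070), or 12.0-fold. Its identifier ends in _s_at, a type that can bind more than 1 transcript, whereas that of the first does not. The order of the HDAC2 KO arrays differed between the probe sets: replicate 2 was lowest in the first and highest in the second.

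Reg3g encodes a lectin that kills bacteria at the mucosal surface and is closely related to Reg3b. Its control signals were tight, at 6.09, 6.14 and 6.10, and its HDAC2 KO signals were 8.89, 8.64 and 8.72. The groups were separated by 2.50, and the difference of 2.64 (SE 0.069) corresponded to 6.24-fold. Only 2 genes, Reg3b and the cytochrome P450 gene Cyp4f14, had larger rises.

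Reg3a and Reg3d, which lie next to Reg3b, stayed at low signal in both groups. Reg3a, another C-type lectin of the Reg3 group, read 5.26, 5.23 and 5.44 in control and 5.65, 5.49 and 5.61 in HDAC2 KO. Its groups were separated by 0.049, less than the range of 0.213 among the control arrays, and its difference was 0.27 (SE 0.073). Reg3d, related to the islet neogenesis protein INGAP, read 5.59, 5.53 and 5.54 in control and 5.74, 5.61 and 5.54 in HDAC2 KO. These groups overlapped, with a difference of 0.079 (SE 0.061).

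Reg1 and Reg2, a closely related pair of pancreatic stone protein genes, differed from each other. Reg1 read 5.13, 5.25 and 5.04 in control and 6.55, 6.45 and 6.50 in HDAC2 KO. All HDAC2 KO arrays were higher, the nearest by 1.20, and the difference was 1.36 (SE 0.063), or 2.56-fold. Its mean over the 6 arrays, 5.82, lay under the signal filter, and among the 7277 genes that the filter removed its rise was the sixth largest. Reg2 read 5.45, 5.52 and 5.60 in control and 5.42, 5.67 and 5.53 in HDAC2 KO. The Reg2 signals of the groups covered the same range, and the difference was 0.016 (SE 0.073). No difference in Reg2 was detectable at this low signal, which does not show that its level was equal.

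Across the cluster the difference thus went from high to low and back to high along the chromosome: Reg3b at 3.54, Reg3d at 0.079, Reg3a at 0.27, Reg2 at 0.016, Reg1 at 1.36 and Reg3g at 2.64. Of the 11 further annotated loci within or next to the run, within 5 positions on either side, 3 had a probe set. These were Lrrtm1, 6330415B21Rik and Gm20362, with signals between 3.46 and 4.59 and differences between 0.020 and 0.15. None was tested, since all lay under the signal filter.

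**Figure D2:**
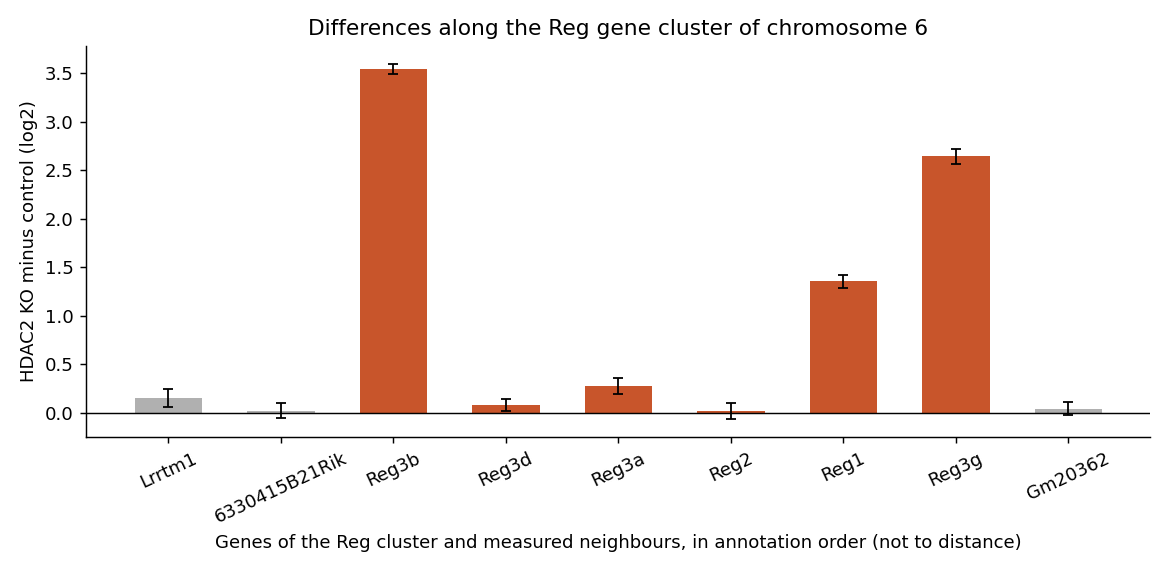
Difference between HDAC2 KO and control (log2) for the 6 Reg genes of chromosome 6 (orange) and the 3 neighbours with a probe set (grey), in the order of the annotation and not to distance. Error bars are the standard error from the SDs of both groups. Reg3b, at one end of the run, and Reg1 and Reg3g, at the other, differ by 3.54, 1.36 and 2.64, and the 3 genes between them by at most 0.27.

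Reg4, a secreted lectin of deep crypt secretory cells, was the member that was lower. It read 13.26, 13.29 and 13.25 in control and 12.14, 12.07 and 12.05 in HDAC2 KO. Every HDAC2 KO array lay at least 1.11 below every control array, against ranges of 0.040 and 0.082 within the groups. Its signal fell by 1.18 (SE 0.045), or 2.26-fold, and 30 genes had a larger fall. Even so it stayed among the strongest signals of the array: 125 genes had a higher control mean and 498 a higher HDAC2 KO mean. Probe sets differ in how strongly they respond, so such a rank orders signals and not transcript amounts.

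Itln1, the intelectin gene, read 10.01, 10.10 and 9.94 in control and 11.55, 11.36 and 11.77 in HDAC2 KO. The groups were separated by 1.26, and the HDAC2 KO arrays spread over 0.407, the widest range of any member within a group. The difference was 1.54 (SE 0.10), or 2.91-fold. In control, 2902 genes had a higher mean signal than Itln1, and in HDAC2 KO 834.

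**Figure D3:**
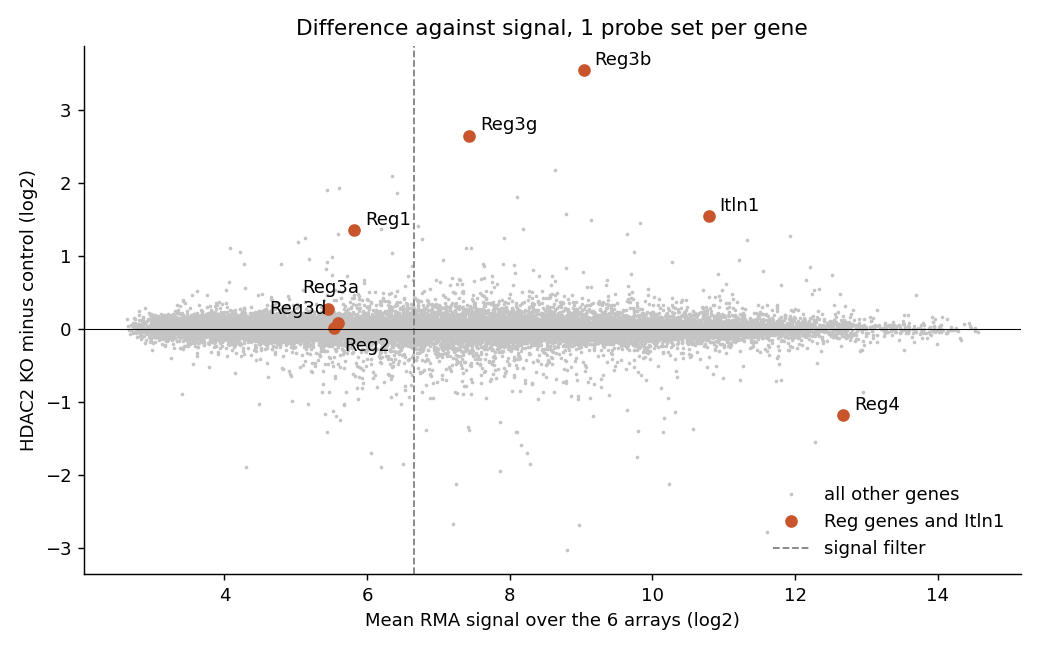
Difference between HDAC2 KO and control (log2) against mean signal over the 6 arrays (log2), 1 point per gene, with the 8 members in orange and the signal filter at 6.66 dashed. Reg3b tops all genes, Reg4 lies at high signal with a fall of 1.18, and Reg1 rises to the left of the filter.

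The HDAC2 KO arrays were not ordered alike in the members. Replicate 2 was the lowest HDAC2 KO array in 5 of the 9 probe sets, those of Reg3g, Reg3a, Reg1 and Itln1 and the first of Reg3b. It was also the array farthest from its group mean over all genes tested, with a root mean square deviation of 0.080 against 0.042 to 0.066 for the other arrays. Without it the difference was 3.57 for Reg3b, 2.70 for Reg3g, 1.38 for Reg1, 1.64 for Itln1 and -1.17 for Reg4. Each moved by less than the pooled SD of its 2 groups, as removing 1 of 3 arrays in a group must by arithmetic.

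Among the genes tested, those with a profile closest to a member had the smallest root mean square difference over the 6 arrays, after subtracting each gene's mean. Genes named only by a clone, accession or predicted-gene identifier were left out. Genes under the signal filter, Reg1 among them, were not searched and may lie as close. The measure is dominated by the size of the group difference. For Reg3b the closest were Cyp4f14 at 0.411 and Reg3g at 0.459, then Apoa4, Apoa1 and Meg3. For Reg3g they were Cyp4f14 at 0.120 and Apoa4 at 0.263, then Apoa1, Reg3b and Meg3. Itln1 lay closest to Cyp2c65 at 0.088, followed by Slc15a2, Meg3, Sptssb and Mal. Reg4 had the nearest companions of all: the pancreatic lipase-related gene Pnliprp2 at 0.031, Ifi27l2a at 0.034 and the desaturase gene Scd1 at 0.037, followed by Limd2 and the immunoglobulin segment Igkv6-14.

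The genes beside Reg4 and Itln1 had no common direction. Of the 10 loci within 5 positions of Reg4, 3 had a probe set and 2 were tested. Notch2, a receptor of the Notch pathway, fell by 0.25 (SE 0.045, limma adjusted p = 0.00715), and Phgdh, the first enzyme of serine synthesis, rose by 0.34 (SE 0.042, limma adjusted p = 0.00115). Both were thus called, in opposite directions. Beside Itln1, 4 of 10 loci had a probe set and 1, F11r, was tested and not called. The others lay under the filter, with Ly9, a lymphocyte receptor gene, differing by -0.56.

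Genes of the pathways that are known to control or accompany Reg expression are given next, tested with limma over all 10916 genes. In that fit 17.9% of genes were called at an adjusted p under 0.05, 9.68% higher and 8.2% lower in HDAC2 KO, with a median difference of 0.0032. Each count below is to be read against these shares, also where they are not repeated, and no list was tested as a set. None of these lists holds a Reg gene or Itln1.

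Of 31 genes of interleukin-22, interleukin-6 and STAT3 signalling, 24 had a probe set and 17 were tested. In this list 1 rose, 2 fell and 14 were not called, a share close to that of all genes, with a median difference of 0.0010. Between 0 and 6 were called over all settings, with 0 under a filter at the 60th percentile and 6 with array weights. Socs3, the feedback inhibitor that STAT3 induces, rose 1.63-fold, from 6.88, 6.85 and 6.80 in control to 7.57, 7.37 and 7.70 in HDAC2 KO (difference 0.70, SE 0.076, limma adjusted p = 0.000606). Its groups did not overlap, and its 3 probe sets differed by 0.46, 0.70 and 0.63. Replicate 2 was again the lowest HDAC2 KO array.

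The receptor gene Il6ra fell by 0.30 (SE 0.055, limma adjusted p = 0.00732), but its call was lost over the mean of its probe sets (adjusted p = 0.233), a second one differing in the other direction by 0.087. Il33, an alarmin of stromal and epithelial cells, fell by 0.37 (SE 0.10, limma adjusted p = 0.0394). That call was lost without any 1 of the control arrays (adjusted p 0.0756 to 0.132) or without HDAC2 KO replicate 1 (0.0562). The interleukin-6 family receptor Osmr, the kinase Jak2 and the interleukin-22 receptor subunit Il22ra1 were not called, with differences of -0.16, 0.11 and -0.13. With the replicate number as a block Osmr was called (limma adjusted p = 0.0234). The cytokine gene of highest signal, Il18, differed by 0.0010. Stat3 itself, named after its values were seen, read 10.54 in control and 10.57 in HDAC2 KO (SE 0.043, limma adjusted p = 0.757). Il6 and Il17a lay under the signal filter, and Il22 had no probe set named for it alone.

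Of 24 sensors of bacteria and their signalling genes tested, 1 rose, 0 fell and 23 were not called, with a median difference of -0.0011. Cd14, the co-receptor for lipopolysaccharide, rose 1.25-fold from 11.46, 11.47 and 11.43 to 11.79, 11.80 and 11.73 (difference 0.32, SE 0.035, limma adjusted p = 0.000602). All 3 HDAC2 KO arrays lay above the control arrays. The lipopolysaccharide receptor Tlr4 differed by -0.13, the kinase genes Irak2 and Irak1 by 0.14 and -0.13, and the NF-kB inhibitor Nfkbia by 0.13, none of them called. Pycard, the inflammasome adaptor and the strongest signal of the list, differed by 0.039 and was not called. Irak1 was called with the replicate number as a block (limma adjusted p = 0.0394). Over all settings 1 to 6 genes of this list were called, and 1 to 2 without single arrays.

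Of 13 other inducible defence genes of the epithelium tested, 2 rose, 2 fell and 9 were not called, against 17.9% called among all genes, with a median difference of -0.053. Between 1 and 5 were called over all settings. Steap4, a metalloreductase gene, fell from 8.11, 8.15 and 7.99 to 7.46, 7.26 and 7.39 (difference -0.72, SE 0.060, limma adjusted p = 0.000162). The transmembrane mucin gene Muc1 rose 1.26-fold (0.34, SE 0.047, limma adjusted p = 0.00217). The chemokine gene Cxcl1 differed by 0.27 and Retnlb, which encodes a goblet cell antibacterial protein, by -0.12 (limma adjusted p = 0.0293 and 0.0359). Blocking on the replicate number ended both calls (limma adjusted p = 0.072 and 0.053), and that of Cxcl1 also without any array other than control replicate 3 or HDAC2 KO replicate 3 (0.0537 to 0.105). The Retnlb call held in the absence of HDAC2 KO replicate 2 and was lost in the absence of each remaining array (0.0695 to 0.119). The strongest signal of the list, the immunoglobulin transporter gene Pigr, differed by -0.055 and was not called. Lcn2, S100a8, S100a9, Nos2, Ido1 and Cxcl5 lay under the signal filter. Among these Cxcl5, a neutrophil chemokine gene named after its values were seen, had the largest difference, from 3.77, 3.86 and 3.87 in control to 4.50, 4.50 and 5.16 in HDAC2 KO (0.88), without overlap.

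Among other secreted antimicrobial and lectin genes, 4 of 17 rose and 3 fell, all by less than 0.4 on the log2 scale. The secreted phospholipase gene Pla2g5 rose 1.30-fold (0.38, SE 0.041), the galectin gene Lgals2 1.24-fold and the mucosal scavenger gene Dmbt1 1.12-fold. The lysozyme genes Lyz2 and Lyz1 fell by 0.32 and 0.30 (limma adjusted p = 0.000748 and 0.00113). The Lyz1 value comes from a probe set ending in _x_at, which may cross-hybridise, and the Lyz1 probe set without that ending read 4.87 in control and 4.91 in HDAC2 KO. The Lgals2 call was lost without such probe sets (adjusted p = 0.351). Zg16, a lectin of colonic mucus with the highest signal here, differed by 0.020 and was not called. Differences of the size seen in Reg3b, Reg3g and Itln1 were not present in this list, whose largest rise was 0.38.

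**Figure D4:**
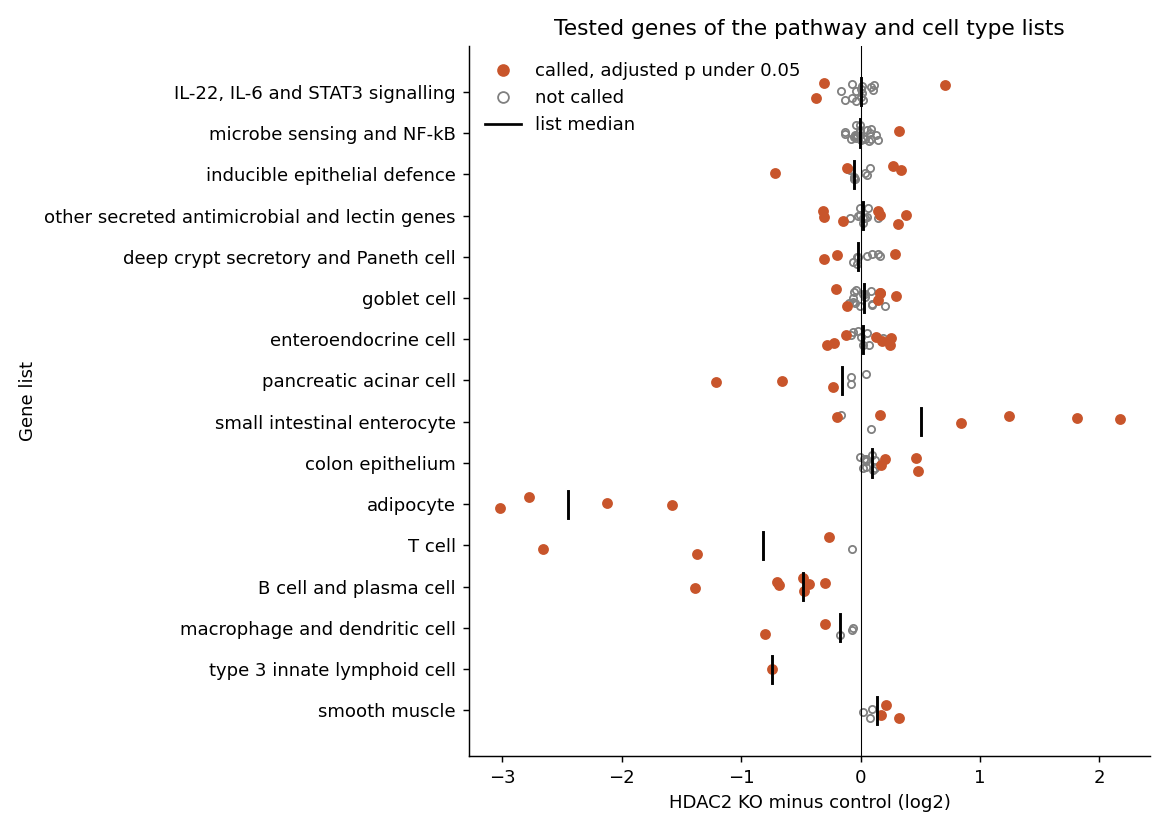
Difference between HDAC2 KO and control (log2) for every tested gene of the pathway and cell type lists, 1 row per list that had a tested gene. Filled points were called by limma, open points were not, and black bars are list medians. The medians of the signalling and defence lists lie between -0.053 and 0.020, and those of adipocytes, T cells and B cells at -2.45, -0.82 and -0.49.

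Markers of the cells that make Reg4 and Itln1 were called in both directions. In the deep crypt secretory and Paneth cell list, from which Reg4 is left out, 1 of 11 tested genes rose, 2 fell and 8 were not called, against 17.9% called among all genes, with a median of -0.020. Between 2 and 6 were called over all settings. Nupr1 rose by 0.29, and Lyz1 and Dll1, a Notch ligand of secretory cells, fell by 0.30 and 0.20 (limma adjusted p = 0.000911, 0.00113 and 0.018). Dll1 lost its call without control replicate 2 or 3 (0.0587 and 0.0639). Ang4, a secreted ribonuclease of highest signal in the list, differed by -0.020 and was not called, but was called lower without probe sets ending in _x_at, _s_at or _a_at (adjusted p = 0.010, difference -0.18). The summed signal of the list on the linear scale was 60400 to 61190 in control and 60610 to 61820 in HDAC2 KO, but it was carried by a few very strong probe sets, such as that of Ang4, whose control mean was 14.30.

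Of 20 goblet cell genes tested, 4 rose and 2 fell, with a median of 0.028. Galnt12, a mucin glycosyltransferase, rose by 0.30 and the goblet cell factor Spdef by 0.16, while Atoh1, which commits cells to the secretory lineage, fell by 0.20 (limma adjusted p = 0.00225, 0.0225 and 0.0057). The Spdef call was lost without control replicate 1 or 3 or without HDAC2 KO replicate 1 or 3 (0.0609 to 0.0971). Of 15 enteroendocrine genes, 4 rose and 3 fell, with a median of 0.022. Chga, a granule protein gene, fell by 0.22 and the somatostatin gene Sst rose by 0.25 (limma adjusted p = 0.00588 and 0.00831). The 7 of 15 and 6 of 20 called stand beside 17.9% of all genes. Over all settings 2 to 8 enteroendocrine and 2 to 11 goblet cell genes were called, and without single arrays 2 to 5 and 2 to 6. Summed goblet cell signals were 178500 to 179900 in control and 179600 to 182600 in HDAC2 KO. That sum too was carried by probe sets near the top of the scale: Clca1 read 14.58 in control, where the highest signal on any of the 6 arrays lay between 14.57 and 14.64. A change in the share of secretory cells, and its part in the Reg4 and Itln1 differences, was not tested. In such bulk samples, fewer cells of a type and less RNA per cell cannot be told apart.

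Of 6 pancreatic acinar genes tested, 0 rose, 3 fell and 3 were not called, and the other 9 with a probe set lay under the filter. Pnliprp2 read 10.81, 10.78 and 10.72 in control and 9.58, 9.56 and 9.54 in HDAC2 KO (difference -1.21, SE 0.036, limma adjusted p = 4.82e-07), a fall close in size to that of Reg4. The colipase gene Clps fell by 0.65 and the elastase gene Cela1 by 0.23 (limma adjusted p = 2.52e-05 and 0.00517). The summed signal of the list was 26730 to 26950 in control and 23240 to 23460 in HDAC2 KO.

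Of 8 small intestinal enterocyte genes tested, 5 rose and 1 fell, with a median of 0.50. Apoa4 and Apoa1, apolipoproteins of absorbed fat, rose by 2.17 and 1.81, the alkaline phosphatase gene Alpi by 1.25 and the fatty acid binding protein gene Fabp2 by 0.85 (limma adjusted p = 1.05e-06, 1.4e-06, 1.67e-06 and 1.89e-06). Apob fell by 0.20, a call lost over the mean of its probe sets (adjusted p = 0.569). The remaining 8 genes with a probe set lay under the filter. The list's summed signal was 7093 to 7438 in control and 11450 to 11510 in HDAC2 KO, and its part in the higher Reg3b, Reg3g, Reg1 and Itln1 signals was not tested.

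**Figure D5:**
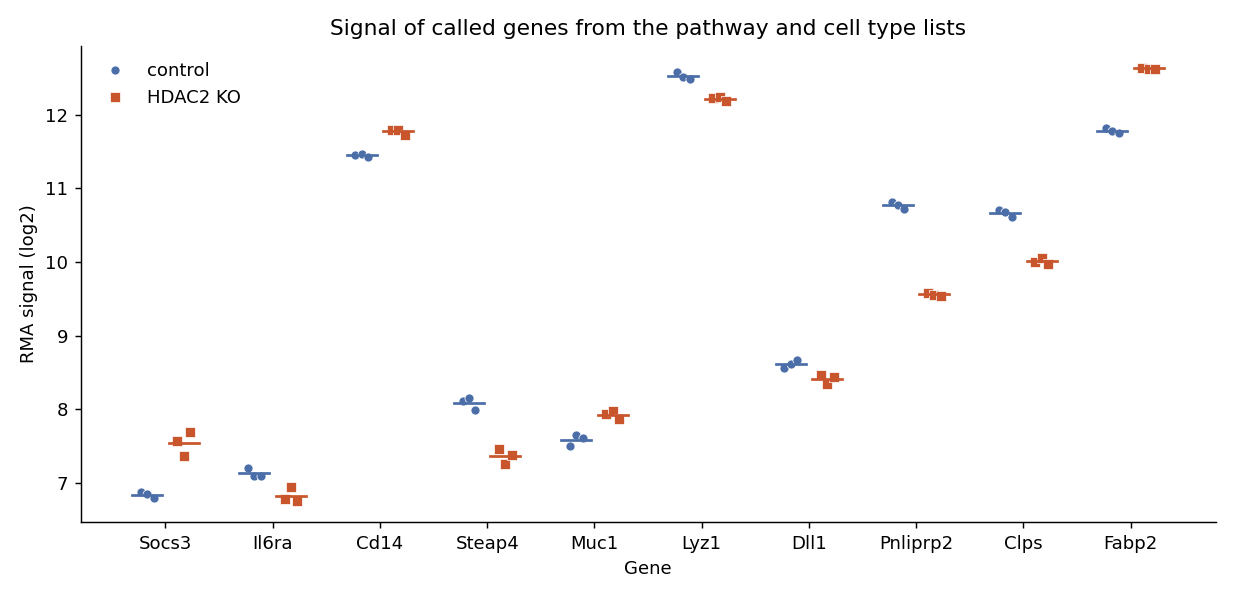
RMA signal (log2) of 10 called genes from the lists on the 3 control arrays (blue circles) and 3 HDAC2 KO arrays (orange squares), with group means as bars. Socs3, Cd14, Muc1 and Fabp2 are higher in HDAC2 KO, and Il6ra, Steap4, Lyz1, Dll1, Pnliprp2 and Clps are lower, without overlap between the groups.

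Marker signals of other cell types also differed between the groups. Colon epithelium genes were strong in all arrays, with all 14 that had a probe set tested, 4 called higher and summed signals of 122100 to 123300 in control and 131300 to 134900 in HDAC2 KO. All 6 smooth muscle genes were tested as well, 3 rising, with sums of 42860 to 43610 and 47010 to 47840. Adipocyte genes fell in 4 of 4 tested cases (sums 12280 to 12910 and 2107 to 2221), T cell genes in 3 of 4 (1397 to 1433 and 656 to 740) and B and plasma cell genes in 7 of 7 (12190 to 12350 and 8529 to 9459). Over all settings 0 to 5 T cell genes were called, and the T cell gene Cd3e lost its call in 8 of 15 alternative settings. Among 5 genes of macrophages and dendritic cells 2 fell (3842 to 3983 and 2920 to 3043). Of the 5 genes listed for type 3 innate lymphoid cells, which make interleukin-22, 2 had a probe set and only Il7r was tested. Il7r fell by 0.74, and 1 gene does not measure the amount of these cells. Neutrophil genes, 7 with a probe set, lay between 4.71 and 6.06 on every array, under the filter.

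Checks of the labels are given in brief. Hdac2 was lower in HDAC2 KO by 0.21 (SE 0.040, limma adjusted p = 0.00893), a call lost without probe sets that can bind several transcripts (0.0957) and over all probe sets (0.0595). Whether the Hdac2 probe set lies in the deleted part was not analysed here. Hdac1, also named in the description of the HDAC2 KO samples, was called higher by 0.15, a call lost in 8 of 16 alternative settings. Xist, the X-inactivation transcript of female cells, and the Y-linked Eif2s3y and Kdm5d had signals above the filter on all arrays. Xist fell by 0.48, and Eif2s3y and Kdm5d rose by 0.61 and 0.67 (limma adjusted p = 4.46e-05, 0.0036 and 0.00419). The part of these shifts in sex-linked signal and in fat and immune markers in the differences of Reg genes and Itln1 was not tested. Extl3 and Egfr, genes of reported surface partners of Reg proteins, differed by -0.090 and -0.12 and were not called.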

How the data were processed

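The authors deposited RMA log2 signals of 45101 probe sets on 6 arrays. RMA is named, without a version, in the submitters' processing notes. It corrects background, quantile-normalizes arrays and summarises probes, which hides any change in total RNA and compresses low differences. The number of arrays limits the precision. Scanner files and scan dates were not used here. Symbols came from a platform annotation of 2016, under which 34945 probe sets had 1 gene, 932 had several, 9160 had none listed and 64 were controls. Of 284 list entries, 250 matched a probe set by their current name.

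Differences were fitted with limma 3.58.1 in R 4.3.3 (lmFit, eBayes, group as the sole term, Benjamini-Hochberg over 10916 genes, called at an adjusted p under 0.05). Before use it was checked on simulated data. Promoters were aligned globally with Biopython 1.88 (match 1, mismatch -1, gap opening -2, gap extension -0.5). Members, lists, motifs and tests were chosen with earlier results of these data known. Named from each list are up to 5 tested genes with the smallest p and the gene of highest signal, and every called neighbour. Il22ra1, Stat3 and the genes under the filter or without a probe set fall outside that rule and were named after their values were seen.

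Both groups carry replicate numbers 1 to 3 in the labels. Deviations of same-numbered arrays correlated across genes with r of 0.21, 0.34 and 0.20, against -0.37 to 0.18 for other pairs. No label says that same-numbered arrays belong together, and correlations as close as 0.20 and 0.18 do not settle it. The numbers were used as a pairing in the replicate block alone. All other SEs and p-values come from fits without it.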

Additional observations from a re-analysis of the deposited data

How the results depend on the processing

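The differences of Reg3b, Reg3g, Reg1, Itln1, Reg3a, Reg3d and Reg4 kept their direction, and all 8 members moved by less than the pooled SD of their 2 groups, under the mean of probe sets, further quantile normalization, median centring, array weights, the replicate block, exclusion of probe sets able to bind several transcripts and removal of each array in turn. Over these settings Reg3b lay between 3.50 and 3.58, Reg3g between 2.57 and 2.70, Itln1 between 1.44 and 1.64, Reg1 between 1.31 and 1.41, Reg3a between 0.23 and 0.34, Reg3d between 0.024 and 0.12 and Reg4 between -1.20 and -1.16. Reg2 lay between -0.048 and 0.077, on both sides of 0. Some of these settings could hardly move a member. The replicate block left every difference unchanged, as the groups are balanced, and excluding probe sets dropped none that represents a member. Averaging probe sets could change Reg3b alone, and median centring shifted all genes by the same amount. Removing 1 of 3 arrays in a group cannot move a difference by as much as the pooled SD, so that measure was met in advance. Stability under these settings therefore says little of the members.

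Over all genes, 1952 were called. With the replicate number as a replicate block 1943 were called, and with array weights 3506. Without single arrays the count lay between 1138 and 2125, the lowest being without control replicate 1, with 1280 without control replicate 2 and 1284 without HDAC2 KO replicate 1. The cause was not tested. In the pathway and cell type lists together 62 genes were called, and 48 to 86 over all settings. From the lists and label checks, 89 genes of smallest p or highest signal were followed through the settings. Of these, 50 kept their side of the threshold in every setting in which they were tested. Another 20, called in the main fit, lost the call in at least 1 setting, and 19 gained one. None, 0 of the 89, changed sign with a call in the main fit or in that setting. Changes of sign without such a call, as in Tlr4 and Egfr, were not counted. Not all 89 are named above, and the neighbours Notch2 and Phgdh are not among them. Besides the calls named with their genes, the replicate block ended those of Cd3e (adjusted p = 0.0977) and Insl5 (0.0601) and gave one to Pla2g2a (0.0338). Signals under the filter in both groups limit what can be said of Reg1, Reg2, Reg3a and Reg3d.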
